A study of Mus musculus with 4 samples.

Results

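RAD21 is a subunit of cohesin, a complex that encircles DNA, keeps sister chromatids paired until they part in mitosis and takes part in the folding of chromosomes into loops. On chromosome arms it is found mostly where the DNA-binding protein CTCF occupies its motif, and a smaller set of sites lies at enhancers and other elements without CTCF. The sites described here are distal RAD21 binding sites of mouse embryonic stem cells (ESCs) that had few RAD21 reads after differentiation into embryoid bodies (EBs). They were chosen by the RAD21 reads themselves. A member is an autosomal ESC summit in an intron or between genes, 1 to 200 kb from the nearest protein-coding transcription start (mm9, GENCODE vM1), with at least 20 reads in the ESC RAD21 library and at most 3 in the EB RAD21 library within 250 bp. Of 15311 deposited ESC sites, 15085 lay on autosomes, 12869 of these were distal, and 8997 were strong distal sites with at least 20 ESC reads. The rule left 1050 of these as lost sites (11.7%), and the other 7947 strong distal sites, with at least 4 EB reads, served as the comparison.

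All cells were of the mouse ESC line R1/E and carried, beside the endogenous gene, Rad21 on a bacterial artificial chromosome with a GFP-containing tag at the end of the protein. Resistant clones had been sorted for GFP. The ESCs (day 0) were kept with LIF on gelatine, and the EBs were grown from the same tagged line by hanging drop for 12 days, so that they are mixtures of differentiating cell types. Chromatin was precipitated with a goat antibody against eGFP or, as the control, with goat IgG. There was 1 library for each combination, 4 in all, and hence no replicate and no test between conditions. Every interval given is a 95% interval that covers counting error only. On autosomes the ESC RAD21 library held 13714772 reads, the EB RAD21 library 7740389, the ESC IgG library 12602155 and the EB IgG library 6929293. Levels were scaled to 1000000 autosomal reads and are given as RPM. At the lower EB depth, 20 ESC reads correspond to 11.3 EB reads, and 3 EB reads to 5.32 ESC reads. "Lost" therefore means few reads in a shallower library, and weak binding, or binding in a small part of the cells of an EB, cannot be told apart from none.

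The letters around the summits showed what many lost sites had in common. A CTCF matrix of 20 bases, learned on ESC sites outside the strong distal ones, was used to find the best match within 150 bp of each summit. Around those matches many lost sites carried the same flanking sequence, which recurs across the mouse genome. The pattern was noticed in these data, so its shares are a description. The families were then learned from CTCF matches at least 3 kb from every deposited ESC or EB site, where 2 repeated sequences emerged. Their consensus is shown first because the description rests on it. Capitals mark the 20 bases of the CTCF match here and in all members below, and each line reads 5′ to 3′ on the strand of the match.
First repeat, consensus of 7277 matches away from sites: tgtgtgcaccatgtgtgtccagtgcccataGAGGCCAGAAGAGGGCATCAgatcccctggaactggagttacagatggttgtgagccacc
Second repeat, consensus of 5502 matches away from sites: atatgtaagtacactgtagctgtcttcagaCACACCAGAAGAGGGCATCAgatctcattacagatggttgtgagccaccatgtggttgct

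Both carry the core CCAGAAGAGGGC and part 3′ of it, where the first continues with CCTGGAAC and the second with CATTACAG. As background, B2 and B3 SINEs are short elements that were copied through RNA into a great many places of the mouse genome, and B2-type elements are known to carry CTCF motifs. The consensus sequences resemble such elements. No repeat annotation was used here, so the families are called the first and the second repeat. A site was assigned to a repeat when the 40 bases on each side of its best match fitted it by more than 10 bits over background. Sites called outside the repeats are those assigned to neither, and other repeated sequence at them was not looked for.

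The next lines show lost sites in the first repeat, the 3 with the best CTCF match among the 12 strongest members, and 5 near genes from the lists of regulators used below. They are given to show how closely unrelated loci share the flanks.
Cct6b site, chr11:82540518-82540607, minus strand: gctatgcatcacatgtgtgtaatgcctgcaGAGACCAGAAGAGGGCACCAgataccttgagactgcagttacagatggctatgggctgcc
Tns4 site, chr11:98972183-98972272, minus strand: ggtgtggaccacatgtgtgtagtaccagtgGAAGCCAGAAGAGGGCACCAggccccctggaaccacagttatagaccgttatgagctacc
Cacng5 site, chr11:107761938-107762027, plus strand: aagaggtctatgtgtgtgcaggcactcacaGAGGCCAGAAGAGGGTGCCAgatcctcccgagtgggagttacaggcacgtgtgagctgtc
Sall4 site, chr2:168660427-168660516, minus strand: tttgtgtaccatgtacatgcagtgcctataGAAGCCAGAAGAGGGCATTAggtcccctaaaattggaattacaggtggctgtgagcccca
Sox2 site, chr3:34500189-34500278, plus strand: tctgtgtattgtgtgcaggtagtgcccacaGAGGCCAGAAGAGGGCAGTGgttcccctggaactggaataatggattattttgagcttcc
Zfp42 site, chr8:44478548-44478637, plus strand: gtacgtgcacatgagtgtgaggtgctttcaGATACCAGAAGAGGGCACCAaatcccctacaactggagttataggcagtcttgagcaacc
Gata2 site, chr6:88101488-88101577, plus strand: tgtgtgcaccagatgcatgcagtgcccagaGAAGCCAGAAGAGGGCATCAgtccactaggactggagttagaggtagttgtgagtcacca
Tcf7l1 site, chr6:72779008-72779097, minus strand: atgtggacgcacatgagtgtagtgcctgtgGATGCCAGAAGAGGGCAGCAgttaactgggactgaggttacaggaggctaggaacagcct

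For the second repeat, the members nearest to Foxa1 and Notch4 are shown.
Foxa1 site, chr12:58553402-58553491, plus strand: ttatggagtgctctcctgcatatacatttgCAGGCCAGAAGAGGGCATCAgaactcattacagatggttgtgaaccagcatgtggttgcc
Notch4 site, chr17:34708967-34709056, plus strand: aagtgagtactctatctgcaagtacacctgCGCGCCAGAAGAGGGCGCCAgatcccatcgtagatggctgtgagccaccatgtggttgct

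Copies of the first repeat were not all lost. The 2 copies with the most EB reads among those at least as high in RPM in EBs are printed to show that their letters are of the same kind.
Ythdc1 site, chr5:87279275-87279364, plus strand: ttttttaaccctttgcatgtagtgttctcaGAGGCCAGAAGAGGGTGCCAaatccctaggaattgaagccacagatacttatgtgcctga
Olfr225 site, chr11:59437891-59437980, plus strand: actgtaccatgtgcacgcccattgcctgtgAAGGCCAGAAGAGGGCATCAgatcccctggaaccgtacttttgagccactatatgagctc

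Among the strongest lost sites outside the repeats, the sites nearest to Trim25 and Fam92b held a CTCF match with unrelated flanks. The site nearest to Nrp2 fell under the limit for a repeat, although part of its flank can be read beside the consensus.
Trim25 site, chr11:88855048-88855137, plus strand: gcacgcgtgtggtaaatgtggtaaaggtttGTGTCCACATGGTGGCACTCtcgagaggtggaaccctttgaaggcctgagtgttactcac
Fam92b site, chr8:122851059-122851148, plus strand: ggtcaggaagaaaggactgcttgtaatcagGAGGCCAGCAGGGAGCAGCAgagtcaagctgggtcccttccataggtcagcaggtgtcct
Nrp2 site, chr1:62769263-62769352, plus strand: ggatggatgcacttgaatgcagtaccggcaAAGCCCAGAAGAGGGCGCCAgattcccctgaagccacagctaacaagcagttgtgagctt

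The strongest lost site without a CTCF match, and another that had 0 EB reads, are shown by the 90 bases around the summit, with no letters in capitals.
Gm13247 site, chr4:145714143-145714232, plus strand: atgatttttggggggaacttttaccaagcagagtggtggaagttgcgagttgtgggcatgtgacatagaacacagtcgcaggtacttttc
Armc9 site, chr1:88085779-88085868, plus strand: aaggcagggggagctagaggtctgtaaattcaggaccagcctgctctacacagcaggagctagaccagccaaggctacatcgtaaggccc

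The first repeat was present at 485 of the 1050 lost sites (46.2%, 43.1 to 49.3) and the second at 34 (3.24%, 2.25 to 4.50). At the other strong distal sites the numbers were 650 of 7947 (8.18%, 7.59 to 8.80) and 40 (0.503%, 0.360 to 0.685). Together the repeats held 49.4% of the lost sites (46.4 to 52.5) against 8.68% of the others (8.07 to 9.32), a difference of 40.7 percentage points. Of 30000 random autosomal windows, 1.56% (1.42 to 1.70) were assigned to either repeat by the same procedure. A CTCF match outside the repeats, at a rate of 1e-04 of random positions, was found at 362 lost sites (34.5%, 31.6 to 37.4) and 6303 of the others (79.3%, 78.4 to 80.2). Outside the repeats, no match was found at 169 lost sites (16.1%, 13.9 to 18.5) and 954 others (12.0%, 11.3 to 12.7). These are the sites called without a match below.

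The share in the first repeat fell as the EB reads rose. It was 51.3% at the 117 sites with 0 EB reads, 46.8% at the 248 with 1, 43.8% at the 329 with 2 and 46.3% at the 356 with 3. The 4 classes of lost sites did not differ beyond their counting intervals. Beyond the limit of the rule the share was 29.5% (27.1 to 32.0) at 4 to 7 EB reads, 10.8% (9.16 to 12.7) at 8 to 11 and 5.02% (3.87 to 6.39) at 12 to 15. It was 0.613% (0.247 to 1.26) at 30 or more, where 90.6% of sites held a CTCF match outside the repeats.

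**Figure D1:**
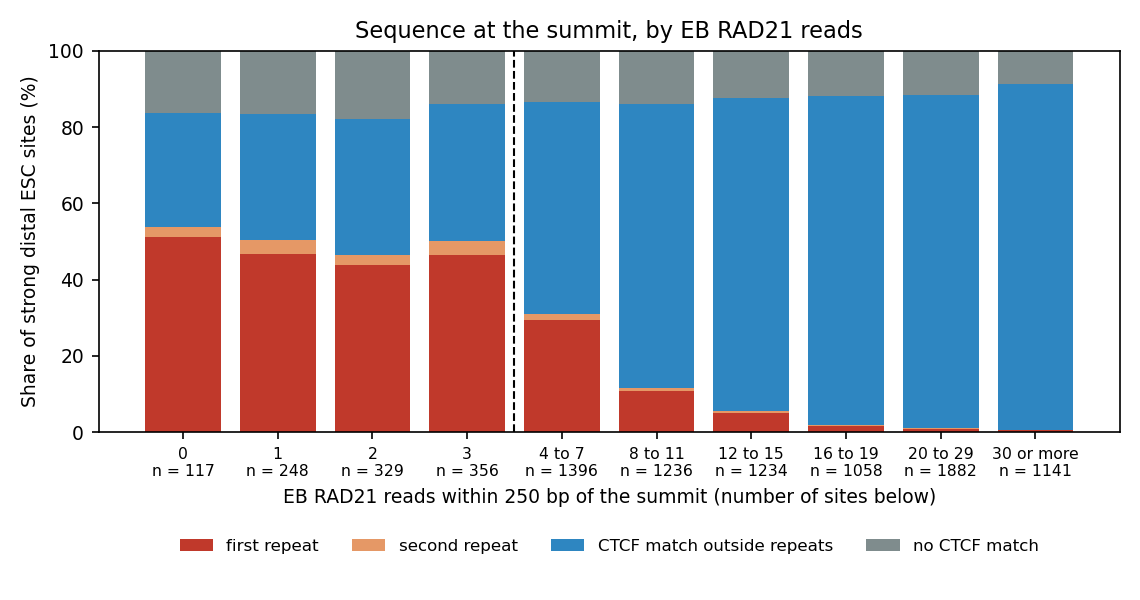
Each bar is a class of strong distal ESC sites by EB RAD21 reads within 250 bp of the summit (horizontal axis, number of sites under each class), divided by the sequence at the summit (vertical axis, share in percent). Bars left of the dashed line are the lost sites; the first repeat takes 43.8% to 51.3% of them and 0.613% of the sites with 30 or more EB reads.

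Seen from the repeats, 485 of the 1135 strong distal sites in the first repeat were lost (42.7%, 39.8 to 45.7), and 34 of the 74 in the second (45.9%, 34.3 to 57.9). Of the 6665 sites with a CTCF match outside the repeats 5.43% were lost (4.90 to 6.003), and of the 1123 without a match 15.0% (13.007 to 17.3). In the opposite direction, 3716 strong distal sites had at least as high a RAD21 RPM in EBs as in ESCs. These included 42 of the sites in the first repeat (3.70%, 2.68 to 4.97) and 3265 of the sites with a match outside the repeats (49.0%, 47.8 to 50.2). The median EB reads were 4 over all strong distal sites in the first repeat and 17 over those with a match outside the repeats.

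**Figure D2:**
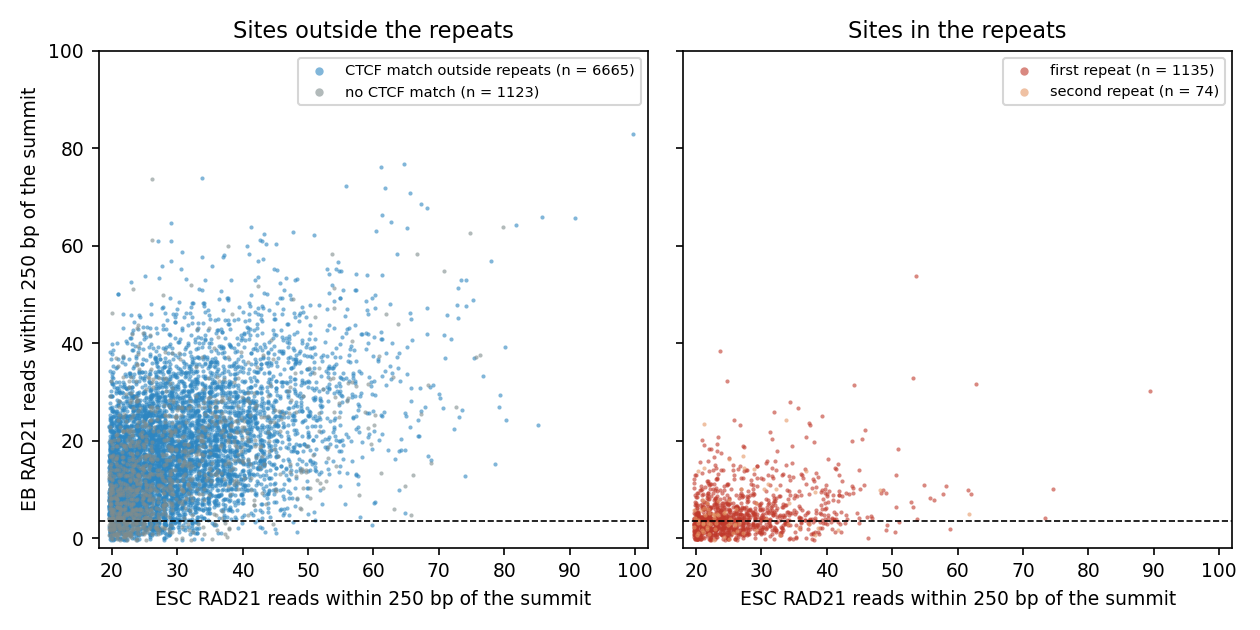
Each point is 1 of 8997 strong distal ESC sites, placed by its ESC (horizontal) and EB (vertical) RAD21 reads within 250 bp of the summit with a small random shift, in sites outside the repeats (left) and in the repeats (right). Points under the dashed line are the lost sites; in the first repeat 485 of 1135 sites lie there, and with a CTCF match outside the repeats 362 of 6665.

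Values that moved with the result were set beside it. The lost sites were weaker in ESCs (median 24 reads against 28). Among sites with 20 to 29 ESC reads the repeats held 47.4% of 875 lost sites (44.1 to 50.8) and 10.002% of 4479 others (9.14 to 10.9). Between the quartiles of the GC content of the lost sites, the shares were 51.8% (47.5 to 56.04) and 9.56% (8.57 to 10.6). Without chromosomes 6, 8 and 11, on which IgG reads were higher in ESCs relative to EBs, they were 49.7% (46.05 to 53.4) and 7.97% (7.30 to 8.68). The part that each of these has in the repeat share was not tested.

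The sites just inside and just outside the limits of the rule were as follows. The 419 lost sites with 20 to 22 ESC reads had a median deposited score of 77.5, and 45.8% lay in a repeat. The 687 distal sites with 17 to 19 ESC reads and at most 3 EB reads had a median score of 64.3, and 39.9% lay in a repeat. At 3 EB reads 50.0% of 356 sites lay in a repeat, and at 4 EB reads, just outside, 42.7% of 403.

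The repeat copies outside the deposited sites were not used by the rule. At the 7277 copies of the first repeat at least 3 kb from any site, the mean RAD21 level within 250 bp was 0.450 RPM in ESCs and 0.236 RPM in EBs. The EB to ESC ratio was 0.526 (0.515 to 0.536). The IgG levels there were 0.205 RPM in ESCs and 0.172 RPM in EBs, with a ratio of 0.838 (0.817 to 0.860). In ESCs, RAD21 in RPM thus stood 2.19 times over IgG (2.16 to 2.23), and 1.38 times over it (1.34 to 1.41) in EBs. At the 5502 copies of the second repeat the excess of RAD21 over IgG was 1.90 times in ESCs (1.85 to 1.95), while EBs had 1.37 times (1.32 to 1.42), and the RAD21 ratio of EBs to ESCs was 0.655 (0.637 to 0.674) against 0.911 (0.879 to 0.944) for IgG. CTCF matches away from sites that were assigned to neither repeat, 4928 in number, had ratios of 0.719 (0.704 to 0.734) for RAD21 and 0.840 (0.813 to 0.867) for IgG. Random windows had 0.983 (0.971 to 0.994) and 1.02 (1.00 to 1.03). The excess of RAD21 over IgG in ESCs was therefore not limited to copies that had been deposited as sites, nor to the repeats. In EBs the excess was lower at the copies of either repeat than at the matches in neither.

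**Figure D3:**
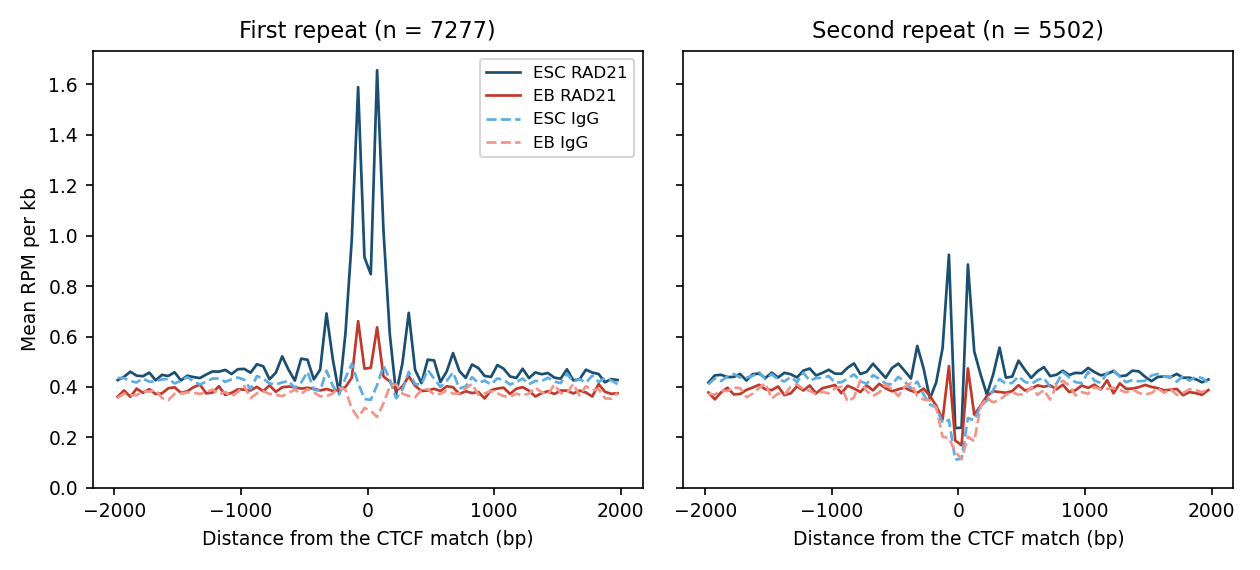
Mean RPM per kb (vertical) of the 4 libraries in bins of 50 bp around CTCF matches in the first repeat (left, 7277 copies) and the second repeat (right, 5502 copies) that lie at least 3 kb from every deposited site. The ESC RAD21 line is the highest of the 4 in every bin within 200 bp of the match. In both RAD21 lines and the ESC IgG line, the bins at the match lie below the bins centred 75 bp to either side. In the EB IgG line this holds for the second repeat only.

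Over the whole autosomal genome the matrix found 9422 matches at a rate of 1e-05 in the first repeat. Of these, 1625 (17.2%, 16.5 to 18.03) lay inside a deposited ESC site, 133 (1.41%, 1.18 to 1.67) inside an EB site, and 375 (3.98%, 3.59 to 4.39) inside a lost distal site. In the second repeat 187 of 6173 (3.03%) lay inside an ESC site and 29 (0.470%) inside an EB site. Of the 8030 matches assigned to neither repeat, 2436 (30.3%) lay inside an ESC site and 1577 (19.6%) inside an EB site. Among distal EB sites not listed in ESCs, 58 of 2675 (2.17%, 1.65 to 2.79) lay in either repeat, against 1.56% of random windows. The first repeat held 1.64% of these EB sites (1.198 to 2.202) and 0.66% of random windows (0.572 to 0.758). The second held 0.523% of them (0.286 to 0.877) and 0.897% of random windows (0.793 to 1.01), with intervals that meet. The ESC list was called from deeper libraries, so these shares depend on depth as well as on binding.

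Within the first repeat, lost copies and others had CTCF matches of like strength, with a median of 24.01 bits (23.8 to 24.4) for the lost sites and 23.8 bits (23.4 to 24.2) for the 650 others. A CpG lay in the match at 31.5% of lost copies and 27.1% of the others, a difference of 4.47 points whose interval of -0.857 to 9.85 includes 0. The flanks of the lost copies fitted the repeat somewhat better, by a median of 39.96 bits over background (37.7 to 41.6) against 34.8 (33.4 to 36.7). Their GC content was 44.7% (44.3 to 45.1) against 43.1% (42.5 to 43.7). With the match read in the direction of the core CCAGAAGAGGGC, as printed above, the summit lay on its 3′ side in 80.6% of lost copies and 84.2% of the others, and this difference too had an interval that includes 0 (-8.10 to 0.908 points).

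The share of sites with a strong CTCF match turned on the repeats and on the threshold. At a rate of 1e-05 a match was found at 45.7% of the lost sites (480, 42.7 to 48.8) and 23.8% of the others (1892, 22.9 to 24.8), a difference of 21.9 points (18.8 to 25.1). At a rate of 1e-04 the order was turned, with 83.5% of the lost sites and 88.0% of the others, a difference of -4.46 points (-6.92 to -2.22). Outside the repeats the shares at 1e-05 were 19.8% of 531 lost sites and 19.1% of 7257 others, a difference of 0.66 points (-2.64 to 4.37). Outside the repeats at 1e-04 the lost sites had fewer matches, 68.2% against 86.9% (-18.7 points, -22.8 to -14.8). Methylation of CpG can weaken CTCF binding, but the position of a CpG in the match was not considered here. A CpG anywhere within matches at 1e-05 was found in 31.2% of lost sites and 36.9% of others (-5.70 points, -10.2 to -0.906). Under 7 of 8 other settings the interval of this difference included 0, with values from -4.87 to -1.11. Under the remaining setting, at least 30 ESC reads, it was -20.4 points (-27.5 to -11.1). At 1e-04 outside the repeats that difference was 1.96 points (-3.16 to 7.24). Methylation was not measured in these samples.

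Among sites outside the repeats, the share that was lost varied with the strength of the match at its lower end and, less so, at its upper end. It was 27.4% (22.7 to 32.5) of 332 sites with less than 6 bits, 11.9% (7.85 to 17.1) at 6 to 9 bits and 4.91% (3.63 to 6.47) at 12 to 15 bits. The share was 4.32% (3.49 to 5.28) at 18 to 21 bits and 6.13% (4.94 to 7.52) at 21 to 24 bits. At 24 bits or more it was 9.32% (7.10 to 12.0) of 590 sites, against 26.8% (24.3 to 29.4) of 1165 sites when those in the repeats were included. Some of the lost sites with a match that was not assigned to a repeat still held letters of its core. AAGAGGG, searched on both strands within 150 bp of the summit, was found at 108 of 362 lost sites (29.8%, 25.2 to 34.8) and 681 of 6303 others (10.8%, 10.05 to 11.6).

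The IgG libraries also differed at the lost sites. IgG reads were not part of the rule, but the ESC IgG library was the control of the ESC peak calls. The lost sites had 3543 ESC and 1376 EB IgG reads, which scaled by library size gave an EB to ESC ratio of 0.706 (0.663 to 0.752). At the other strong distal sites the ratio was 1.04 (1.02 to 1.06). Among these, the 3716 sites with at least as high a RAD21 RPM in EBs as in ESCs had an IgG ratio of 1.21 (1.17 to 1.24). The IgG ratio thus moved with the RAD21 reads that set the classes. The IgG ratio was 0.723 (0.658 to 0.795) at lost sites in the first repeat, 0.701 (0.630 to 0.779) at those with a match outside the repeats and 0.662 (0.569 to 0.768) at those without a match. At the other strong distal sites in the first repeat it was also low, at 0.798 (0.742 to 0.859). It was 1.06 (1.03 to 1.08) at the others with a match outside the repeats and 1.06 (1.00 to 1.12) at the others without a match. For RAD21, which chose the sites, the corresponding ratio over the lost sites was 0.132. In EBs, RAD21 at the lost sites stood 1.28 times over IgG in RPM (1.198 to 1.38), against 6.88 times in ESCs (6.64 to 7.13). Single sites had too few reads for such ratios, with 310 of the 1050 at 0 EB IgG reads.

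**Figure D4:**
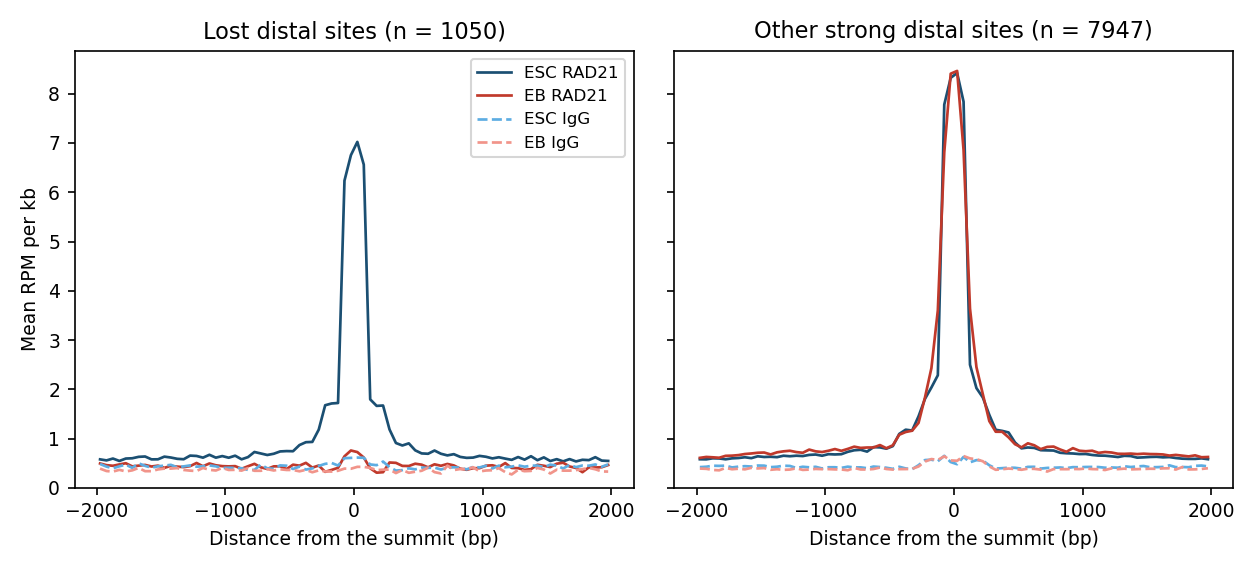
Mean RPM per kb (vertical) of the 4 libraries in bins of 50 bp around the summits of the 1050 lost sites (left) and the 7947 other strong distal sites (right). At the lost sites the mean within 100 bp was 6.64 for ESC RAD21, 0.685 for EB RAD21, 0.608 for ESC IgG and 0.408 for EB IgG, and the reads in this window chose the sites.

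The ratio of the libraries changed with base composition. In random windows with less than 40% GC the EB to ESC ratio was 1.23 for RAD21 (1.21 to 1.25) and 1.23 for IgG (1.21 to 1.25), and in windows of 50 to 55% GC it was 0.629 (0.599 to 0.661) and 0.695 (0.659 to 0.732). The lost sites had a median GC content of 46.3% (45.9 to 46.7) and the other strong distal sites 45.5% (45.3 to 45.7). In the class of 45 to 50% GC the IgG ratio was 0.670 (0.605 to 0.741) at the 421 lost sites, 0.796 (0.773 to 0.819) in random windows and 0.960 (0.927 to 0.994) at the other strong distal sites. At the copies of the first repeat away from sites, the RAD21 ratio in that class was 0.447 (0.431 to 0.463) and the IgG ratio 0.738 (0.704 to 0.774), and at less than 40% GC they were 0.678 (0.652 to 0.706) and 1.01 (0.959 to 1.07). The RAD21 ratio of these copies thus lay under the IgG ratio of the same copies in both classes.

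**Figure D5:**
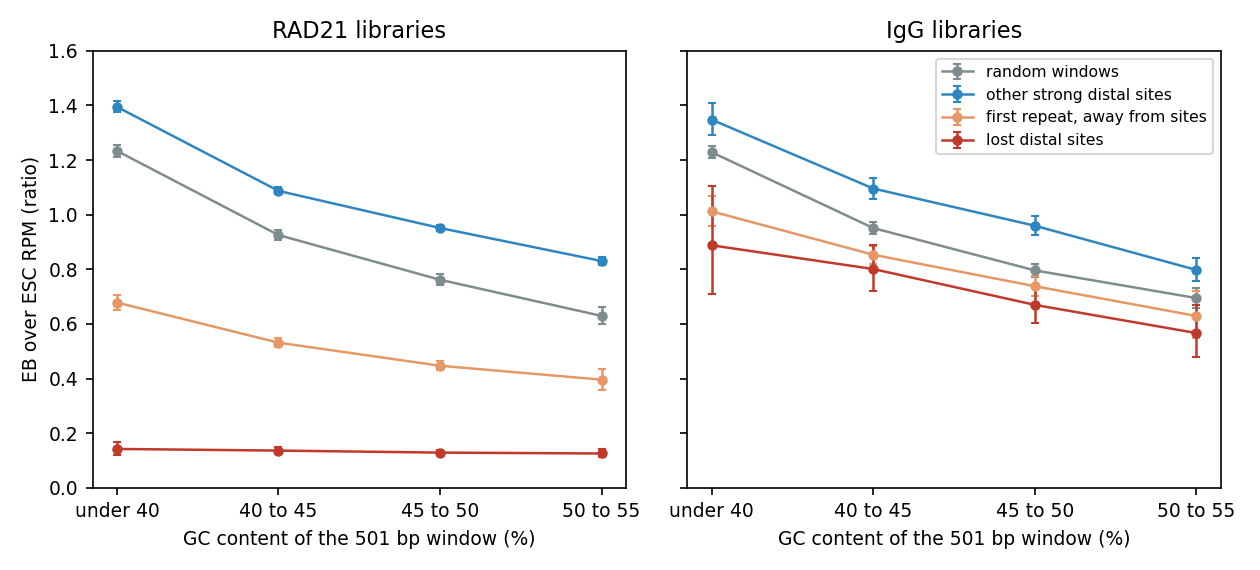
EB over ESC RPM (vertical) in the RAD21 (left) and IgG (right) libraries by the GC content of the window within 250 bp (horizontal), for random windows, other strong distal sites, copies of the first repeat away from sites, and lost sites, with 95% counting intervals. The lines fall as GC content rises, and that of RAD21 at the lost sites is held low by the rule.

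Outside the repeats the lost share rose with GC content, from 1.64% (1.00 to 2.52) of 1221 sites with less than 40% GC to 8.57% (7.51 to 9.71) at 45 to 50% and 11.1% (7.89 to 15.2) of 314 sites at 55% or more. In the repeats it was higher in each of the 4 classes that held over 50 sites, at 26.0% (20.4 to 32.1) of 231 sites under 40% GC and 49.3% (44.3 to 54.2) of 406 at 45 to 50%. The part that the GC dependence of the libraries has in the lost sites outside the repeats was not tested.

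By chromosome the lost share was between 6.87% on chromosome 15 and 16.8% on chromosome 5. Chromosomes 6, 8 and 11 held 30.1% of the lost sites (27.3 to 33.0) and 23.6% of the others (22.7 to 24.6). In random windows these 3 had ESC over EB IgG ratios of 1.19, 1.19 and 1.17, against 0.861 to 1.00 on the other autosomes. Chromosome 5, with the highest lost share, had a ratio of 0.989, and 69.0% of its lost sites lay in a repeat. The place relative to genes differed little. An intron held 444 of the lost sites (42.3%, against 41.5% of the others), and the median distance to a protein-coding start was 25339 bp (22889 to 28539) against 22936 bp (22095 to 23742). Over 100 kb from a start lay 11.8% of the lost sites and 9.24% of the others, a difference of 2.57 points (0.644 to 4.76).

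The deposited site nearest to a lost site, when it lay 1 to 50 kb away and was not itself lost, also tended to have fewer EB reads. The EB over ESC quotient of RAD21 RPM was taken on the log2 scale, with 1 read added to each count. Over the 661 lost sites with such a neighbour, its median at the neighbour was -0.46 (-0.60 to -0.33). At the neighbours of the other strong distal sites it was -0.24 (-0.26 to -0.17, 4854 sites with a neighbour). A neighbour can belong to more than 1 of these sites, and the intervals do not allow for it. When sites in the repeats were left out among the neighbours, the medians were -0.29 (-0.42 to -0.22) and -0.12 (-0.17 to -0.10). Without chromosomes 6, 8 and 11 they were -0.27 (-0.42 to -0.17) and -0.17 (-0.17 to -0.11), with intervals that meet. Over all 15085 autosomal ESC sites, the lost ones included, the median was -0.27 (-0.29 to -0.25). The medians of -0.29 and -0.27 at neighbours of lost sites lay close to it. The lost sites themselves, chosen by these reads, had a median of -2.29.

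The strongest lost sites had between 45 and 60 ESC reads. The site nearest to Trim25, a ubiquitin ligase gene, lies in an intron of Gm11496 at chr11:88854617-88855656 and had 60 ESC and 3 EB RAD21 reads, with 6 ESC and 2 EB IgG reads. A site in an intron of Rph3al, which encodes a protein of vesicle release, at chr11:75716500-75717816 had 59 and 2 RAD21 reads and 4 and 1 IgG reads. A site in an intron of Cct6b, a chaperonin subunit gene, had 51 and 3 RAD21 reads. All 3 had few EB reads with either antibody, too few for a comparison of RAD21 with IgG at a single site.

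The 12 strongest also included a site in an intron of Rai1 that is nearest to the start of Srebf1, a regulator of lipid synthesis (chr11:60008191-60009411, 50 and 1 reads). One in an intron of Ncoa1, a coactivator of nuclear receptors, had 49 and 2, and one 21518 bp from Tns4 had 49 and 3. The site in Nrp2, a receptor gene of axon guidance, had 48 and 3, that nearest to Fam92b 48 and 1, and that in Cacng5 46 and 0. The last 3 of the 12, nearest to Samd7, Ffar2 and Gm13247, had 45 ESC reads each and 1, 2 and 3 EB reads. Of these 12 sites, 6 lay in the first repeat, 5 had a CTCF match outside the repeats and 1 had no match. Chromosome 11 held 6 of them.

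Among the 117 lost sites with 0 EB reads, the 10 strongest had 34 to 46 ESC reads. The Cacng5 site, in a gene of a calcium channel subunit family, was 8.65-fold higher in RPM in ESCs when its EB count was set to a floor of 3 reads. Its reads in both RAD21 libraries chose this site, and that value leaves out the counting error of the ESC reads. In the first repeat were also the sites nearest to Cpn2, N28178, 1700020O03Rik and Pomp and those in introns of Etv6, an ETS repressor gene, and Lats2, a kinase gene of the Hippo pathway, together with the site nearest to Olfml1. Their ESC reads were between 34 and 38, and their ESC IgG reads between 0 and 7. The sites nearest to Dtwd2 and Armc9 had no CTCF match, with 38 and 35 ESC reads. Thus 8 of the 10 lay in the first repeat.

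Lists of regulators were compared with the 11.7% of all strong distal sites that were lost. Of 44 strong distal sites nearest to a gene of core and naive pluripotency, 15 were lost (34.1%, 20.5 to 49.9), and over the 44 the median log2 quotient, EB over ESC, was -1.44 against -0.17 over all 8997. Several of these sites share a gene, and the list had been drawn up with earlier results of these data known. The 15 sites belonged to 11 genes, and 5 lay in the repeats. Of the 31 sites of the list outside the repeats 10 were lost, where 6.82% (6.27 to 7.40) of all 7788 strong distal sites outside the repeats were.

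Sox2, a core pluripotency factor, had 3 lost sites, in an intron of Sox2ot at chr3:34499792-34500832 with 25 ESC and 1 EB reads and at 109938 and 122049 bp from the start with 22 and 2 and 21 and 3 reads. The first of them lay in the first repeat and the other 2 had a CTCF match outside the repeats. The site 86231 bp from Zfp42, the gene of the stem cell marker REX1, had 33 and 3 reads and lay in the first repeat. So did the site 67812 bp from Sall4, a zinc finger factor of the pluripotency network, with 26 and 0 reads. A site 7711 bp from Tet2, which encodes an enzyme that oxidises methylcytosine, had 33 and 2 reads and a CTCF match outside the repeats.

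A site in an intron of Esrrb, an orphan nuclear receptor of naive cells, had 20 and 1 reads and a match outside the repeats. Sites without a CTCF match lay 9831 bp from Fgf4 (22 and 3 reads), the growth factor ESCs secrete, 45631 bp from Mycn (25 and 1) and 24052 bp from Jarid2 (23 and 1), a partner of Polycomb complex 2. Il6st, the gp130 receptor through which LIF acts, had 1 lost site in the first repeat (22 and 2) and 1 without a match (20 and 1). Zfp281 had 1 in the first repeat (20 and 3) and 1 with a match outside the repeats (27 and 2), and the site nearest to Tcl1 had 20 and 2 reads. IgG reads at these 15 sites were between 2 and 8 in ESCs and between 0 and 3 in EBs.

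Sites nearest to the other regulators were lost at shares whose intervals include 11.7%. Of 26 sites nearest to lineage transcription factors 3 were lost (11.5%, 2.45 to 30.2), nearest to Foxa1 and Gata2, endoderm and blood regulators, both in a repeat, and to Tbx5, a heart regulator, with a match outside the repeats. Of 29 sites of the TGF-beta and Nodal pathway 4 were lost (13.8%, 3.89 to 31.7), nearest to the ligand subunit gene Inhbb (33 and 1 reads), the Nodal antagonist Lefty1 (26 and 1), the signal transducer Smad2 (23 and 1) and the inhibitor Smad7 (32 and 2), none in a repeat. The Wnt pathway had 2 of 24 (8.33%, 1.03 to 27.0), nearest to the receptor gene Fzd8 and to Tcf7l1, a repressor of Wnt targets in ESCs, both in the first repeat. For FGF and Notch it was 4 of 15 (26.7%, 7.79 to 55.1), nearest to Etv4 (37 and 1 reads), Fgf17 (30 and 3), Notch4 (21 and 3, in the second repeat) and Spry4 (22 and 3). Cohesin and CTCF genes had 0 of 4 sites lost, and DNA methylation genes 0 of 3, numbers too small to show a difference.

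The lost sites had 950 nearest genes, of which 86 had at least 2 lost sites and 10 at least 3. Tns3, which encodes a focal adhesion protein, had 5, of which 4 lay in the gene. They had 30, 34, 21, 22 and 21 ESC reads and 2, 2, 1, 0 and 0 EB reads, and 4 of the 5 had no CTCF match. Smarcad1, a chromatin remodelling gene that is expressed in ESCs, had 4 lost sites within 75 kb, with 39, 24, 30 and 21 ESC reads and 3, 2, 0 and 2 EB reads. The first of them lay in the first repeat and the next 2 had no match. Camta1 had 4, all in its introns, of which 3 lay in the first repeat. All 3 of Cradd and all 3 of Sox5 lay in the first repeat, as did 2 of the 3 of Fxyd4, of Kctd15 and of Gm9873, and Rpl36-ps3 had 1 in the first repeat and 2 without a match.

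Runs of at least 3 lost sites within 500 kb held 291 of the 1050 (27.7%). Such a count depends on how densely ESC sites lie. Of the strong distal sites within 500 kb of a lost site, counted once for each such pair, 16.6% were lost, against 12.4% of those within 500 kb of a site that was not lost. The pairs share sites, so no interval is given, and the runs below are a description. On chromosome 7 a stretch around Fgf3 and Fgf4 held 6 lost sites between the summits at 151976186 and 152480041, and none of them lay in a repeat. They were nearest to Gm10152 (27 ESC and 2 EB reads), Fgf3 (23 and 1), Fgf4 (22 and 3), Tpcn2 (36 and 3, and 24 and 3) and Mrgprf (28 and 0). Of these 6 sites, 4 had no CTCF match. On chromosome 11 a run of 4 near Mgat5b and Sec14l1 lay wholly in the repeats. Both kinds of run thus occurred.

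The 169 lost sites without a CTCF match were searched on both strands within 150 bp of the summit for short patterns of other factors. ATGCAAAT, an octamer bound by Oct factors, was found at 7 (4.14%, 1.68 to 8.35) against 15 of 954 other sites without a match (1.57%, 0.883 to 2.58) and 2.53% of random windows, a difference of 2.57 points (0.222 to 6.78). TCAAGGTCA, bound by ESRRB, was found at 4 (2.37%) against 7 (0.734%) and 0.610% of random windows, a difference of 1.63 points (-0.00363 to 5.21). CCATTGTT, a pattern of Sox factors, was found at 3 lost sites, and GGGTGTGG, a pattern of Klf factors, at 6. The Tead pattern GGAATG was found at 30 lost sites, the GATA pattern AGATAAG at 6, the Fox pattern TGTTTAC at 4, and the pattern TGAGTCA of AP-1 factors at 6. These 6 differed from the other sites by -1.90 to 3.81 points, with intervals that include 0. A match is no evidence of binding, and 8 patterns were compared.

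Of the 1050 lost sites 3 overlapped a deposited EB site, although they had at most 3 EB reads near the ESC summit. Over all strong distal sites 40.6% overlapped no EB site. The 3 were nearest to Actbl2 (30 ESC and 1 EB reads), Mrm1 (26 and 3) and Mitf (20 and 2), the gene of a melanocyte factor. The first and second lay in the first repeat.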

How the data were processed

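RAD21 ChIP-seq and IgG libraries of ESCs and EBs were grouped by the labels, 1 library each. The authors deposited aligned 35 base reads on mm9, and peaks called with MACS in each cell type against its IgG library. Each deposited peak has a score, and each deposited summit a signal, its read pileup. The score only broke ties and set 1 alternative, and the pileup was not used. The aligner is not given in the sources used here, and how it treated reads that fit several places is not known, which matters in repeats. The files held no reads repeated at 1 position and strand. The EB IgG file ends within a line on chromosome X, so only autosomes were used.

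Each read was moved by 100 bp, about the centre of its fragment, before counting within 250 bp. The CTCF matrix was learned on the even and scored on the odd chromosomes and the reverse, with thresholds from 30000 random windows. Repeat families were fitted as 2 position-wise base profiles of the 40 bases on each side of CTCF matches. Shares have Clopper-Pearson intervals, differences Newcombe intervals, medians order-statistic intervals and ratios exact conditional binomial intervals. A count of 0 was taken to allow 3 reads. The intervals, read counts and repeat calls were tested on simulated data. The planted copies followed their consensus more closely than copies of the first repeat away from sites. In those, the median share of copies with the consensus base was 44.1% 5′ of the match and 65.9% 3′ of it. How well such diverged copies are called was not tested. Python 3.11.15, numpy, scipy and pandas were used. Members, gene lists and comparisons were chosen with earlier results of these data known, and the repeats after seeing the data. Named members were the 12 with most ESC reads, the 10 strongest with 0 EB reads, those nearest to listed genes, genes with several members and runs within 500 kb; of genes with 2 members and of runs only some are named, for length. Sequences near listed genes, in kept copies and for the second repeat were added after their values were seen. Alternatives changed the window, read and score limits, read shift, distance to a start, motif threshold and distance, GC content, chromosomes, neighbour distance and repeat limit.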

Additional observations from a re-analysis of the deposited data

How the results depend on the processing

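Of 61 alternatives 37 stayed within the interval of the reported value, or for the number of lost sites within 1.5 times it. The 1050 lost sites became 175 with at least 30 ESC reads, 365 with at most 1 and 1790 with at most 5 EB reads, and 478 with a score of at least 100. The difference in CTCF motif share of 21.9 points was 26.6 with a window of 150 bp, 16.9 with 500 bp, 30.6 with at least 30 ESC reads, 16.7 with the motif within 100 bp and 0.66 outside the repeats, and it reversed to -4.46 at a rate of 1e-04. The IgG ratio of 0.706 was 0.801 with a window of 500 bp and 0.627 with at most 1 EB read. GC content of 46.3% was 45.7% with 150 bp windows, 48.8% within 100 bp and 47.9% outside the repeats. The CpG difference of -5.70 points was -20.4 with at least 30 ESC reads, and in the 7 other alternatives, from -4.87 to -1.11, its interval included 0. The neighbours' median of -0.46 was -0.86 with at least 30 ESC reads and -0.93 with at most 1 EB read, where sites that the reported rule calls lost count among the neighbours, and -0.27 without chromosomes 6, 8 and 11. The difference in repeat share, for which all alternatives were chosen after seeing the data as were those outside the repeats, was 40.7 points and became 47.4 with 150 bp, 32.2 with 500 bp, 52.5 with at least 30 ESC reads, 37.4 with 20 to 29 ESC reads and 36.1 with a repeat limit of 20 bits. Except where stated, the cause was not tested. No paired analysis was possible because each group had 1 library.

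With 1 library per group no difference was set against replicate spread, and the EB library held 7740389 reads against 13714772, so low EB counts are imprecise. How reads were placed among near-identical repeat copies is unknown, and its part in the repeat shares was not tested.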

Other observations

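Among all runs of 7 bases within 150 bp of the summit, counted on both strands, the one with the largest difference between lost and other sites without a CTCF match was CCCACCC. It was found at 37 of 169 lost sites (21.9%), 65 of 954 others (6.81%) and 7.597% of random windows. CCCCACC and CCACCCC, which overlap it, were found at 21.3% and 15.98% of these lost sites against 8.70% and 4.93% of the others. TGAGCCA, whose letters occur in the consensus of both repeats, was found at 18.3% against 8.60%, and in 7.12% of random windows. AGCCAGG was found at 20.1% against 11.2%, and GAGCAGC at 15.4% against 7.02%. CAAGGTC, part of the pattern bound by ESRRB, had a smaller difference than these. It was found at 13.02% against 5.14%, and in 3.75% of random windows. These runs were picked for their difference, so no test was made. Lost sites without a match had a median GC content of 47.9% (47.3 to 48.7) and the others 45.5% (45.1 to 45.7).

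In the ring from 500 to 1000 bp around the summits, outside the window of the rule, the RAD21 ratio of EBs to ESCs was 0.637 (0.612 to 0.662) at the lost sites and the IgG ratio 0.900 (0.858 to 0.942). At the other strong distal sites they were 1.08 (1.07 to 1.09) and 0.914 (0.899 to 0.930).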
